A study of Mus musculus with 8 samples.

Results

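The tricarboxylic acid (TCA) cycle enzymes described here are 9 genes: Cs, Idh3a, Idh3b, Idh3g, Ogdh, Sucla2, Suclg1, Fh1 and Mdh2. They were taken by symbol, and every probe set annotated to a member symbol alone was kept. This gave 21 probe sets out of 34945 with a single symbol, and 9 genes out of the 18193 measured. Each gene is led by its brightest probe set, by mean log2 intensity over all 8 arrays, and the other 12 probe sets are given as a check.

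The RNA came from C2C12, an established mouse myoblast line that fuses into myotubes when serum is withdrawn. All 8 cultures were differentiated for 3 days in medium with 2% dialyzed serum, then infected with an adenovirus and grown for 3 more days. The GFP group received a virus for green fluorescent protein and the GFP-PGC-1α group a virus for PGC-1α tagged with GFP. The GFP+DFO and GFP-PGC-1α+DFO groups received the same viruses with 100 µM deferoxamine (DFO), an iron chelator. Each of the 4 groups had 2 arrays, called biological duplicates in the design text. All cultures received a virus carrying GFP, and no uninfected cultures were compared. The construct raises PGC-1α by viral delivery in a single cell line, and the design gives 1 dose of DFO and 1 time.

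In the mitochondrial matrix, citrate synthase joins acetyl-CoA to oxaloacetate, and the later enzymes of the cycle oxidise citrate back to oxaloacetate while passing electrons to NAD+ and ubiquinone. NAD-dependent isocitrate dehydrogenase and the 2-oxoglutarate dehydrogenase complex are its regulated oxidative steps, and succinate dehydrogenase carries iron-sulfur clusters. PGC-1α is a transcriptional coactivator that drives mitochondrial gene expression in muscle together with factors such as the oestrogen-related receptors, NRF-1 and GABP. None of the 9 enzymes described here carries an iron-sulfur cluster itself.

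RefSeq promoter windows (GRCm38.p6, 250 bases before to 50 after a start) were searched for the core elements of those factors, because the 9 genes moved together. Windows were at hand for 8 of the 9 genes; Idh3a was not among them. The oestrogen-related receptor element AAGGTCA, the NRF-1 element CATGCGC and the GABP element CCGGAAG were sought on both strands. No window printed here holds overlapping matches. The 4 windows below are shown because they hold the matches, which are in capitals; each is written 5′ to 3′ on the strand of its gene. The Idh3b window is chr2:130284402-130284701 (minus strand), the Idh3g window chrX:73786848-73787147 (minus strand), and the Ogdh windows are chr11:6291920-6292219 and chr11:6292308-6292607 (both plus strand).
Idh3b: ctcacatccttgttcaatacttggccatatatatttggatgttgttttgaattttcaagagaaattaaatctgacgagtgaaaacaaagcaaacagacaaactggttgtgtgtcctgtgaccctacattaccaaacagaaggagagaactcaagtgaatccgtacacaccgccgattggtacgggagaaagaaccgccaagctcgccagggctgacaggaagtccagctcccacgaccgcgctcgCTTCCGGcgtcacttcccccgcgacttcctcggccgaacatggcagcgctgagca
Idh3g: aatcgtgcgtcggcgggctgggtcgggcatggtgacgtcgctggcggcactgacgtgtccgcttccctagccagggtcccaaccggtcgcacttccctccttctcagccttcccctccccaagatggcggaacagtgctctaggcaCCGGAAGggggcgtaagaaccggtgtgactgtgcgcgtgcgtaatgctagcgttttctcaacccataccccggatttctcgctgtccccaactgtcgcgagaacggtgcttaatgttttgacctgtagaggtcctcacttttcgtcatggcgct
Ogdh, start 4 of 6: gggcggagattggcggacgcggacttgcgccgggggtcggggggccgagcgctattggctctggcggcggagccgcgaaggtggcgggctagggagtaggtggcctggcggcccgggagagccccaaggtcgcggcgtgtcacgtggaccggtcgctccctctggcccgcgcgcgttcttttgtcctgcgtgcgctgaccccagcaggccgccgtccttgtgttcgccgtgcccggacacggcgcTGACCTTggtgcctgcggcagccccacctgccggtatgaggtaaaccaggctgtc
Ogdh, start 5 of 6: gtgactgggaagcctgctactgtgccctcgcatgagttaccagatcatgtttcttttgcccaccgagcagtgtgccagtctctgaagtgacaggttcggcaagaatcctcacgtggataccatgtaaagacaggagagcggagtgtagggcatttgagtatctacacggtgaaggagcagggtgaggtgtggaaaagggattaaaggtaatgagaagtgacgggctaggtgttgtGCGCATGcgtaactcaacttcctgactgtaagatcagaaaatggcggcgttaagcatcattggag
CCGGAAG was found in Idh3b, on the opposite strand at bases -5 to 2 from the start, and in Idh3g, on the gene's own strand at -104 to -98. It was present in 8.86% of the 32851 windows and in 9.93% of the 27025 genes of the table, counting a gene with a match in any window. AAGGTCA was found only in Ogdh among the 8 genes, at -5 to 2 on the opposite strand of start 4, against 4.72% of all windows and 5.38% of genes. CATGCGC was also found only in Ogdh, at -15 to -9 on the opposite strand of start 5, against 3.91% of all windows and 4.41% of genes; the window of start 6 overlaps that of start 5 and holds the same match. The Cs, Sucla2, Suclg1, Fh1 and Mdh2 windows held none of these letters. A match is a string of letters and not a measured binding site.

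Values are the authors' deposited probe-set intensities on a linear scale. A fold or log2 change compares group means of log2 intensity, and a change was called at an adjusted p under 0.05 in limma, with Benjamini-Hochberg adjustment over all 18193 genes. Array medians lay between 59.4 and 62.8, so a difference in total RNA cannot be seen in these values. All 9 lead probe sets were among the brightest, at the 96.28th to 99.54th percentile of the probe sets with a single symbol. The construct was seen on the brightest probe set of Ppargc1a, which read 28.64 and 37.28 in GFP cells and 7210.63 and 7036.35 in GFP-PGC-1α cells. With DFO it read 26.62 and 88.09 against 7930.33 and 7710.45. Over the mean of all Ppargc1a probe sets, the change with both treatments against GFP cells was -0.106 (limma adjusted p = 0.714). That comparison includes the change with DFO, which over the mean was -0.84 in GFP cells and -0.96 in PGC-1α cells. The change over the mean with PGC-1α alone is not given here. None of the 10 myotube markers lay under the 25th percentile on both arrays of any group. Their summed intensity was 59981-62660 in GFP, 50959-51456 in GFP-PGC-1α, 24259-24559 in GFP+DFO and 16784-17899 in GFP-PGC-1α+DFO. In these bulk samples, fewer cells of a type and less RNA per cell cannot be told apart.

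All 9 genes rose with PGC-1α, both without and with DFO. Without DFO the rises ran from 0.62 (Mdh2) to 1.95 (Idh3a) on the log2 scale, with a median of 0.92 against -0.08 over all genes. With DFO they ran from 0.67 (Mdh2) to 2.56 (Idh3a), with a median of 1.47 against -0.05. Over all genes, 4.96% were called higher without DFO and 6.93% with DFO. In GFP cells DFO lowered 8 of the 9, all but Mdh2, with a median change of -0.91 against -0.02 over all genes, where 12.5% of all genes were called lower. On the deposited scaling the group means of all 9 genes had the same order. They were lowest in GFP+DFO, then GFP, then GFP-PGC-1α+DFO, and highest in GFP-PGC-1α. Scaled to spiked-in poly-A RNAs, Cs, Idh3a, Idh3b, Sucla2, Suclg1 and Mdh2 lay 0.07 to 0.31 (log2) higher in GFP-PGC-1α+DFO than in GFP-PGC-1α. None of these differences passed (limma adjusted p 0.197 to 0.777), and the median of all genes on that scale was 0.45.

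**Figure D1:**
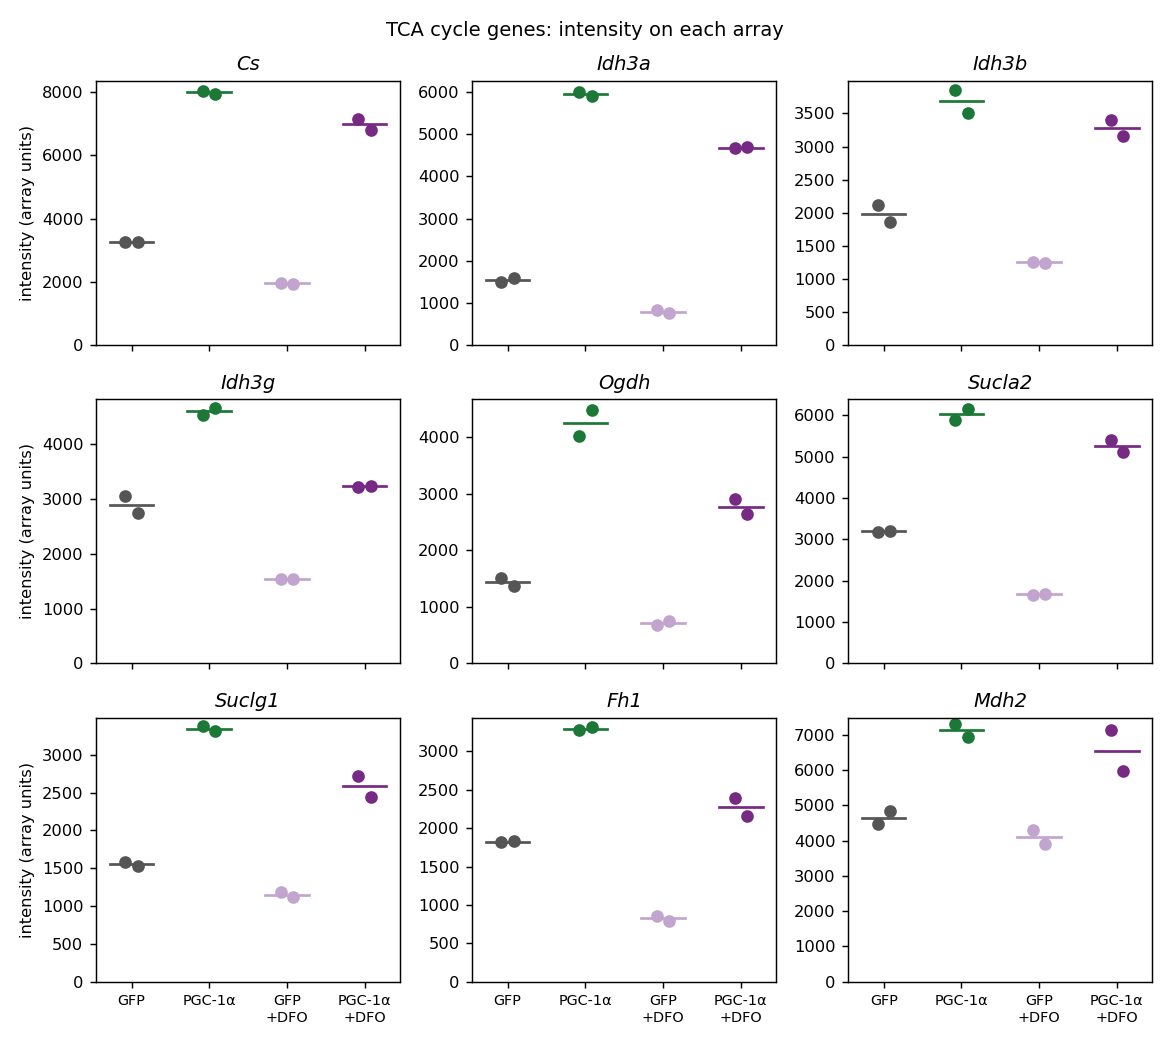
Intensity of the lead probe set of each of the 9 genes on each of the 8 arrays (linear axis), with points for arrays and short lines for group means. For every gene the GFP-PGC-1α arrays lie above the GFP arrays, and the GFP+DFO arrays lie below the GFP arrays, least so for Mdh2. Groups of 2 arrays also separated in genes without a call, such as Suclg2 and Idh2 with PGC-1α without DFO. The share of all genes that separate was not counted.

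Cs, citrate synthase, makes the citrate that enters the cycle. Its lead probe set 1450667_a_at read 3249.68 and 3259.28 in GFP, 8043.94 and 7935.63 in GFP-PGC-1α, 1971.41 and 1940.58 in GFP+DFO, and 7134.82 and 6814.43 in GFP-PGC-1α+DFO. The 4 groups did not overlap, and both PGC-1α groups stood above both GFP groups. PGC-1α raised Cs 2.46-fold (log2 1.30 ± 0.08 SE, n = 2 against 2 arrays, limma adjusted p = 0.00256) without DFO and 3.57-fold (log2 1.83, adjusted p = 0.000756) with it. In GFP cells DFO lowered it by 0.73 on the log2 scale (log2 -0.73 ± 0.08, limma adjusted p = 0.00256). In PGC-1α cells the change was -0.20 (95% interval -0.39 to 0.00) and did not pass (limma adjusted p = 0.128). The other Cs probe sets, 1422578_at and 1422577_at, passed the same 3 comparisons in the same directions.

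NAD-dependent isocitrate dehydrogenase is built from a catalytic subunit, Idh3a, and the subunits Idh3b and Idh3g, which take part in its assembly and regulation. Idh3a read 1488.72 and 1599.72 in GFP, 5998.7 and 5910.73 in GFP-PGC-1α, 829.3 and 755.26 in GFP+DFO, and 4670.14 and 4688.64 in GFP-PGC-1α+DFO. No 2 groups overlapped, and the gap between the PGC-1α groups and the GFP groups was the widest of the 9 genes on the log2 scale. The rise was 3.86-fold without DFO (log2 1.95 ± 0.09 SE, limma adjusted p = 0.00168) and 5.91-fold with it (log2 2.56, adjusted p = 0.000524). DFO lowered Idh3a in GFP cells (log2 -0.96, limma adjusted p = 0.00187) and, by the deposited scaling, in PGC-1α cells (log2 -0.35, adjusted p = 0.0436), where the sign turned to 0.09 with scaling to spiked-in poly-A RNAs.

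On the lead probe sets Idh3b rose less than Idh3a. It read 2111.88 and 1860.12 in GFP, 3859.9 and 3514.34 in GFP-PGC-1α, 1258.27 and 1245.83 in GFP+DFO, and 3397.69 and 3158.04 in GFP-PGC-1α+DFO. The rise with PGC-1α was 1.86-fold without DFO (log2 0.89 ± 0.11 SE, limma adjusted p = 0.0109) and 2.62-fold with it (adjusted p = 0.00188). Its fall with DFO in GFP cells was 0.66 (log2 -0.66, adjusted p = 0.00997), and the change in PGC-1α cells was -0.17 (95% interval -0.44 to 0.10, adjusted p = 0.317).

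Idh3g read 3062.63 and 2736.05 in GFP, 4535.93 and 4662.76 in GFP-PGC-1α, 1540.66 and 1546.68 in GFP+DFO, and 3227.96 and 3231.68 in GFP-PGC-1α+DFO. Its GFP-PGC-1α+DFO arrays stood only just above its GFP arrays. The rise with PGC-1α was 1.59-fold without DFO (log2 0.67 ± 0.09 SE, limma adjusted p = 0.015) and 2.09-fold with it (adjusted p = 0.00231). DFO lowered it in GFP cells by 0.91 (log2 -0.91, adjusted p = 0.00217).

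Ratios of these subunits within an array shifted as well. The log2 ratio of Idh3a to Idh3b was -0.50 and -0.22 in GFP and 0.64 and 0.75 in GFP-PGC-1α, a shift of 1.05. For Idh3a to Idh3g the shift was 1.28, and for Idh3b to Idh3g it was 0.23. Each of these 3 pairs separated the 4 arrays completely, and the exact two-sided permutation p was 0.333, the smallest that 2 arrays against 2 allow. The size of the shift rested on the probe sets: over the mean of all probe sets Idh3a to Idh3b moved by 0.43 and Idh3b to Idh3g by 0.51. In all, 4 pairs were compared, the other being Sucla2 to Suclg1.

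The other Idh3 probe sets did not all follow their leads. Idh3a probe set 1422500_at read 154.18 and 153.98 in GFP, 1035.67 and 987.57 in GFP-PGC-1α, 51.32 and 56.13 in GFP+DFO, and 237.22 and 233.37 in GFP-PGC-1α+DFO. With DFO in PGC-1α cells it fell by 2.10 on the log2 scale (log2 -2.10 ± 0.10 SE, limma adjusted p = 0.000406 over all 34945 probe sets), while the Idh3a lead changed by -0.35. Idh3a probe set 1422501_s_at fell by 1.00 there (adjusted p = 0.0038), and 1447701_x_at changed by -0.49 (adjusted p = 0.0623). Idh3b probe set 1418885_a_at read 484.04 and 649.02 in GFP and 738.7 and 643.82 in GFP+DFO, which overlap, so it did not repeat the fall of the Idh3b lead with DFO (log2 0.30, adjusted p = 0.313). Idh3b probe set 1441271_at, which was dimmer at 80.95 to 227.13, fell with DFO in PGC-1α cells (log2 -0.69, adjusted p = 0.0239) and changed by 0.08 in GFP cells (adjusted p = 0.764). Idh3g probe set 1416788_a_at ran from 1197.24 to 4164.94 and kept the order of its lead. The order of Idh3a and Idh3b in the rise with PGC-1α without DFO also differed by probe set. Idh3b probe sets 1418885_a_at and 1441271_at rose by 1.59 and 1.31. Idh3a probe sets 1422501_s_at, 1447701_x_at and 1422500_at rose by 0.88, 1.22 and 2.71. Which transcripts each probe set reads was not tested.

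**Figure D2:**
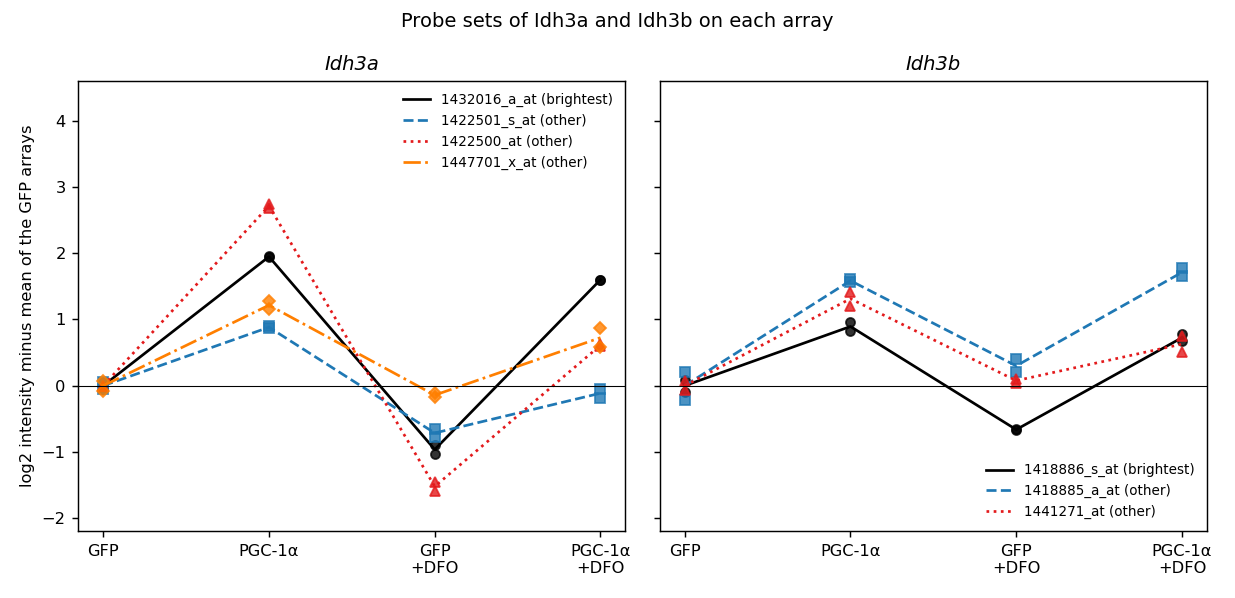
Log2 intensity of every probe set of Idh3a and Idh3b on the 8 arrays, minus the mean of its GFP arrays. A line per probe set runs through the group means. The Idh3a probe sets part in GFP-PGC-1α+DFO. There the intensity of 1422500_at was 237.22 and 233.37 after 1035.67 and 987.57 without DFO, while that of the Idh3a lead was 4670.14 and 4688.64 after 5998.7 and 5910.73.

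Ogdh is the decarboxylating subunit of the 2-oxoglutarate dehydrogenase complex. It read 1516.45 and 1363.08 in GFP, 4024.73 and 4483.85 in GFP-PGC-1α, 681.57 and 745.88 in GFP+DFO, and 2904.66 and 2640.71 in GFP-PGC-1α+DFO. No 2 groups overlapped. PGC-1α raised it 2.96-fold without DFO (log2 1.56 ± 0.12 SE, limma adjusted p = 0.00358) and 3.88-fold with it (adjusted p = 0.00115). DFO lowered it in GFP cells (log2 -1.01, adjusted p = 0.00335) and in PGC-1α cells, where the change was -0.62 (adjusted p = 0.0156) by the deposited scaling and -0.18 by the spike-in scaling. The dim second Ogdh probe set 1445632_at, at 30.23 to 152.97, also rose with PGC-1α (log2 1.88, adjusted p = 0.0236). With DFO it did not pass in GFP cells (log2 -0.07, limma adjusted p = 0.886) or in PGC-1α cells (log2 -0.68, adjusted p = 0.136). Over the mean of the Ogdh probe sets the fall in GFP cells did not pass.

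Succinyl-CoA ligase joins a shared alpha subunit, Suclg1, to a nucleotide-specific beta subunit, Sucla2 for ADP or Suclg2 for GDP. Sucla2 read 3175.41 and 3208.02 in GFP, 5883.33 and 6162.07 in GFP-PGC-1α, 1665.49 and 1677.72 in GFP+DFO, and 5410.51 and 5121.04 in GFP-PGC-1α+DFO. It was 1.89-fold higher with PGC-1α without DFO (log2 0.92 ± 0.08 SE, limma adjusted p = 0.0051) and 3.15-fold higher with DFO (adjusted p = 0.000804). Suclg1 read 1586.82 and 1525.04 in GFP, 3375.95 and 3313.96 in GFP-PGC-1α, 1185.13 and 1114.44 in GFP+DFO, and 2722.44 and 2447.34 in GFP-PGC-1α+DFO. It rose 2.15-fold without DFO (log2 1.10 ± 0.09 SE, adjusted p = 0.00471) and 2.25-fold with it (adjusted p = 0.00206).

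With DFO in GFP cells Sucla2 fell by 0.93 (log2 -0.93, limma adjusted p = 0.00142) and Suclg1 by 0.44 (log2 -0.44, adjusted p = 0.0251), and the ratio of Sucla2 to Suclg1 shifted by -0.50. That ratio lay at 1.00 to 1.07 in GFP and at 0.49 to 0.59 in GFP+DFO, with an exact permutation p of 0.333. Sucla2 also has probe sets 1430402_at, at 72.51 to 171.56, and 1447056_at, at 5.54 to 26.28. Neither passed in any comparison, and their changes with PGC-1α without DFO were -0.38 and -1.14, so the mean over the 3 Sucla2 probe sets was -0.20 there. Probe set 1447056_at lay under the 25th percentile of its array on 6 of 8 arrays. Suclg1 has a single probe set.

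Fh1, fumarase, hydrates fumarate to malate. It read 1822.27 and 1829.94 in GFP, 3281.03 and 3311.98 in GFP-PGC-1α, 857.22 and 792.5 in GFP+DFO, and 2395.44 and 2164.28 in GFP-PGC-1α+DFO. Its fall with DFO in GFP cells was the largest of the 9 lead probe sets (log2 -1.15 ± 0.09 SE, limma adjusted p = 0.00119). PGC-1α raised it 1.81-fold without DFO (adjusted p = 0.00864) and 2.76-fold with it (adjusted p = 0.00131). Fh1, too, has a single probe set.

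Mdh2, mitochondrial malate dehydrogenase, regenerates oxaloacetate. It had the smallest log2 changes of the 9 with PGC-1α, with and without DFO, and with DFO in GFP cells. It read 4479.04 and 4831.78 in GFP, 7316.36 and 6947.68 in GFP-PGC-1α, 4300.82 and 3907.43 in GFP+DFO, and 7129.89 and 5964.2 in GFP-PGC-1α+DFO. The PGC-1α groups stood above the GFP groups, but the GFP-PGC-1α+DFO arrays spanned the lower GFP-PGC-1α array. The rise was 1.53-fold without DFO (log2 0.62 ± 0.12 SE, limma adjusted p = 0.0407) and 1.59-fold with it (adjusted p = 0.0207). The change with DFO in GFP cells was -0.18 (95% interval -0.49 to 0.13, adjusted p = 0.362). Its second probe set 1416478_a_at gave 0.78 with PGC-1α (adjusted p = 0.0219 over all probe sets), while the lead with that adjustment did not pass (adjusted p = 0.0637). For the second probe set the change in GFP cells with DFO was -0.18 (adjusted p = 0.322).

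Tested one by one, with adjustment over all 34945 probe sets, the 12 further probe sets gave 10 higher with PGC-1α without DFO, where 3.23% of all probe sets were called higher, and 9 higher with DFO present, where 4.69% were. In GFP cells DFO lowered 5 of the 12, where 9.75% of all probe sets were called lower, and in PGC-1α cells 4 of the 12 on the deposited scaling, where 12% were. The probe sets without a call in any of these comparisons were the 2 dim ones of Sucla2.

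**Figure D3:**
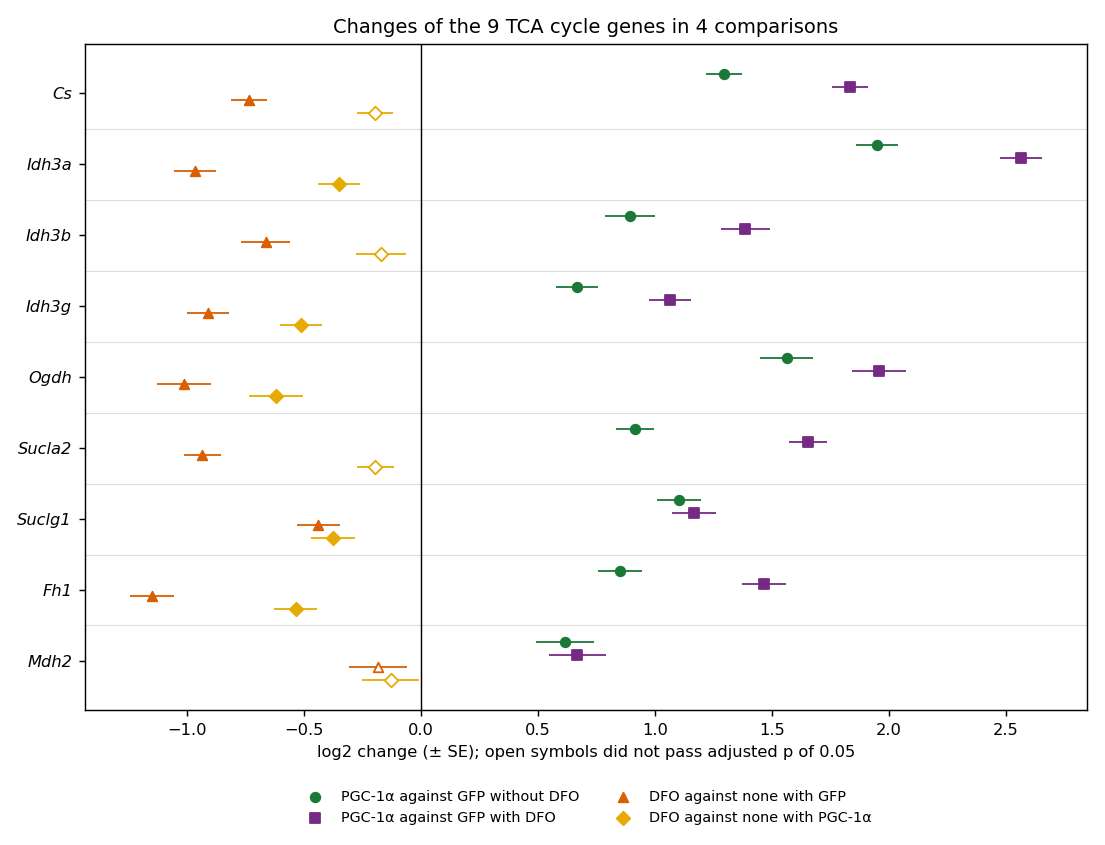
Log2 change of each of the 9 genes in 4 comparisons, as points with the SE from limma; open symbols did not pass an adjusted p of 0.05. The PGC-1α changes lie between 0.62 and 2.56, and the DFO changes in GFP cells lie between -1.15 and -0.18.

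The calls of a rise with PGC-1α without DFO rested on few arrays. Of the 10 myotube markers 4 fell in the same comparison and 7 fell with PGC-1α when DFO was present (medians -0.23 and -0.90). Over all genes limma called 1770 without DFO, 51% of them higher, and 3446 with DFO, 36.6% of them higher. The part of the markers in the rises was not tested. Calls of Idh3b, Idh3g, Fh1 and Mdh2 were lost when either GFP-PGC-1α array was left out, which leaves 1 array in that group. Fewer genes passed over all genes in these fits as well. The median rise of the 9 members was 0.95 without replicate 1 and 0.96 without replicate 2. Idh3b also lost its call without GFP replicate 2 (limma adjusted p from 0.0502 to 0.0784 over its 3 losses), Idh3g without GFP replicate 2 or either GFP+DFO array (0.056 to 0.0902) and Fh1 without GFP replicate 1 (0.0571 to 0.0666). Mdh2 lost it without any one of the GFP, GFP-PGC-1α or GFP+DFO arrays (0.0935 to 0.178). Fitted to only the 4 arrays compared, limma called 0 of the 9, as it called 0 of all 18193 genes, where 4531 had an unadjusted p under 0.05. With DFO present, the Mdh2 rise was lost without either GFP+DFO array (adjusted p 0.089 and 0.12).

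The falls with DFO in GFP cells were lost for Idh3b without either GFP+DFO array (limma adjusted p 0.0655 and 0.0693). They were lost for Suclg1 without any one of the GFP, GFP-PGC-1α or GFP+DFO arrays (0.0563 to 0.144). Other measures moved with DFO as well. Of the 10 myotube markers 8 fell in GFP cells and 9 in PGC-1α cells, with medians of -2.48 and -2.68 on the log2 scale. The ratio of 5′ to 3′ beta-actin probe sets, a sign of RNA quality, was 0.921 and 0.898 in GFP, 0.919 and 0.897 in GFP-PGC-1α, 0.868 and 0.859 in GFP+DFO, and 0.753 and 0.811 in GFP-PGC-1α+DFO. Summed myoblast markers were 3035-3370 in GFP and 1833-1848 in GFP+DFO, and 3303-3415 in GFP-PGC-1α and 1699-1986 in GFP-PGC-1α+DFO. Summed fibroblast markers were 14036-14042 in GFP and 18062-18381 in GFP+DFO, and 13584-13961 and 14232-14958 in the PGC-1α groups. Such sums follow the brightest genes. By single genes, DFO in GFP cells raised 3 and lowered 3 of the 8 myoblast markers, with a median of 0.05, and raised 1 and lowered 1 of the 6 fibroblast markers, with a median of -0.15. Summed markers of dividing cells were 729-923 over all groups, and of the 5 measured Cdk1 fell with PGC-1α without DFO (log2 -1.02, limma adjusted p = 0.00597); it was named after its value was seen. The part of these in the results was not tested.

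In PGC-1α cells the falls with DFO were smaller and their direction depended on the scaling. By the deposited scaling 5 of the 9 members passed as lower (Idh3a, Idh3g, Ogdh, Suclg1 and Fh1), with a median of -0.35 over the 9 against 0.01 over all genes, while 14.2% of all genes were called lower. Spiked-in poly-A RNAs lay 0.35 and 0.49 below the mean of the 8 arrays on the log2 scale in the GFP-PGC-1α+DFO group. Scaled to them, the median of all genes was 0.45 and that of the members 0.09, and 0 of the 9 passed, where limma called 4201 genes in all (7310 at an unadjusted p under 0.05). On that scale Idh3a, Suclg1, Cs, Idh3b, Sucla2 and Mdh2 were above 0 and Idh3g, Ogdh and Fh1 below 0; the share of calls that were higher was 80.9% instead of 44.6%. The deposited scaling gave -0.51 for Idh3g (adjusted p = 0.0129), -0.53 for Fh1 (0.0125) and -0.37 for Suclg1 (0.0389), against -0.07, -0.09 and 0.07 by the spike-in scaling. It gave -0.19 for Sucla2 (95% interval -0.40 to 0.01, adjusted p = 0.146) and -0.13 for Mdh2 (-0.44 to 0.18, adjusted p = 0.509).

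The calls in PGC-1α cells also depended on single arrays. Idh3a lost its call without any one of the 8 arrays (limma adjusted p 0.0628 to 0.167), and Suclg1 without any one but GFP-PGC-1α+DFO replicate 1 (0.0653 to 0.155). Idh3g and Fh1 lost it without either GFP-PGC-1α array (0.0628 to 0.0676 and 0.0631 to 0.0662). Ogdh lost it without replicate 2 of GFP-PGC-1α or of GFP-PGC-1α+DFO (0.0614 and 0.077). The count of calls was 1 without GFP-PGC-1α replicate 1, 0 without its replicate 2, 2 without GFP-PGC-1α+DFO replicate 2, and 3 without either GFP or either GFP+DFO array. Fitted to only the 4 arrays compared, limma called 0 of the 9 and 1942 genes in all (5732 at an unadjusted p under 0.05).

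The interaction asks whether DFO changed the response to PGC-1α. All 9 lead probe sets had a larger rise with DFO than without it, by 0.05 (Mdh2) to 0.74 (Sucla2), with a median of 0.49 against -0.01 over all genes. None of the 9 passed in limma (adjusted p 0.0688 for Sucla2 to 0.905 for Mdh2), and 0.555% of all genes were called. At an unadjusted p under 0.05 there were 6 of the 9 and 3165 of all 18193 genes. Under spike-in scaling the medians were 0.93 for the members and 0.43 for all genes. The sign turned without single arrays for Mdh2 (down to -0.08) and Suclg1 (-0.01), and over the mean of probe sets for Idh3a, Idh3b and Ogdh (-0.15, -0.15 and -0.11). The 95% interval was 0.45 to 1.02 for Sucla2, 0.27 to 0.81 for Cs, 0.29 to 0.94 for Idh3a and 0.28 to 0.95 for Fh1. It was -0.27 to 0.40 for Suclg1 and -0.38 to 0.49 for Mdh2. With limma's trend and robust options 6 of the 9 passed (Cs, Idh3a, Idh3b, Idh3g, Sucla2 and Fh1), and 1467 genes passed in all. Among genes above the median level 5 of the 9 and 1316 genes in all passed. Quantile normalization and a floor under the low values each passed Sucla2 alone of the 9, with 216 and 448 genes in all. The other 12 probe sets did not share the direction of the leads, with 6 above 0 and 6 below 0, and none of them passed among 0.117% of all probe sets called; the interaction was -0.58 on Idh3a probe set 1422500_at and 0.62 on its lead.

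The cells with both treatments, against GFP cells, had 7 of the 9 genes higher, with a median of 0.72 against -0.01 over all genes and 13.5% of all genes called higher. Cs was 2.14-fold higher (log2 1.10, limma adjusted p = 0.00045) and Idh3a 3.03-fold higher (log2 1.60, adjusted p = 0.000246). The genes that did not pass were Idh3g, at 0.16 (95% interval -0.07 to 0.38, adjusted p = 0.253), and Fh1, at 0.32 (0.08 to 0.55, adjusted p = 0.052). Under spike-in scaling all 9 passed, with a median of 1.34 against 0.61 over all genes, Idh3g at 0.77 (adjusted p = 0.0216) and Fh1 at 0.94 (adjusted p = 0.00836). Fh1 also passed with quantile normalization, median centring, the floor under low values, the genes above the median level, the trend and robust options, and without GFP-PGC-1α+DFO replicate 2 (adjusted p = 0.0486). In this comparison 9 of the 10 myotube markers fell, with a median of -3.14. Over all genes limma called 5786 here, 42.4% of them higher. The part of the markers in the comparison was not tested. Mdh2 lost its call (adjusted p = 0.0335) without any one array but GFP-PGC-1α+DFO replicate 2 (0.0633 to 0.136). The comparisons above share arrays with each other, so their counts are not independent.

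The cycle has other subunits, of which 8 were measured: Dlst and Dld of the 2-oxoglutarate dehydrogenase complex, Suclg2, the succinate dehydrogenase subunits Sdha, Sdhb, Sdhc and Sdhd, and Idh2, the NADP-dependent mitochondrial isocitrate dehydrogenase. With PGC-1α 6 of the 8 rose without DFO, with a median of 0.77, and 7 of the 8 with DFO, with a median of 1.03. Of the 7, Idh2 (limma adjusted p = 0.0498) lost its call without any one of the 8 arrays (0.066 to 0.226), leaving 6. DFO lowered 7 of the 8 in GFP cells, with a median of -0.54. In PGC-1α cells it lowered 5 of the 8 by the deposited scaling, with a median of -0.39, and 0 by the spike-in scaling. On that scale Dlst, Sdha, Sdhb, Sdhc and Sdhd were above 0, at 0.04 (Sdha) to 0.31 (Sdhd), and Dld, Suclg2 and Idh2 were below 0. With both treatments against GFP cells, 4 of the 8 were called higher and 2 lower by the deposited scaling, with a median of 0.38. Over all genes limma called 5786 there, 42.4% of them higher. The lower ones, Suclg2 and Idh2, turned to 0.08 and 0.21 under spike-in scaling.

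Succinate dehydrogenase, which carries iron-sulfur clusters and feeds electrons to ubiquinone, rose in all 4 subunits with PGC-1α. Sdhb, the iron-sulfur subunit, read 2727.05 and 2986.98 in GFP, 6183.32 and 6356.56 in GFP-PGC-1α, 2055.14 and 2180.87 in GFP+DFO, and 5523.58 and 5346.84 in GFP-PGC-1α+DFO. It rose 2.20-fold without DFO (log2 1.14, limma adjusted p = 0.00433) and fell by 0.43 with DFO in GFP cells (log2 -0.43, adjusted p = 0.023). Sdhd, a membrane anchor, rose by 1.18 and changed by -0.20 with DFO in GFP cells (adjusted p = 0.155). Sdha, the flavoprotein, rose by 0.83 and Sdhc, the other anchor, by 0.71, and with DFO in GFP cells Sdha fell by 0.50 (log2 -0.50) and Sdhc by 0.57 (log2 -0.57). Dlst, the succinyl-transferring subunit, rose by 1.14 (adjusted p = 0.00676) and fell by 0.60 with DFO in GFP cells (log2 -0.60, adjusted p = 0.0159).

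Dld, the dihydrolipoyl dehydrogenase shared with pyruvate dehydrogenase, read 1875.43 and 1895.83 in GFP, 2867.1 and 2853.9 in GFP-PGC-1α, 925.25 and 817.65 in GFP+DFO, and 1958.5 and 1861.89 in GFP-PGC-1α+DFO. The groups with both treatments and with neither overlapped (log2 0.02, limma adjusted p = 0.914). Suclg2, the GDP-specific partner of Suclg1, differed from Sucla2: it read 516.99 and 514.75 in GFP, 576.82 and 604.77 in GFP-PGC-1α, 346.43 and 380.8 in GFP+DFO, and 357.7 and 352.49 in GFP-PGC-1α+DFO. Its change with PGC-1α was 0.20 without DFO (95% interval -0.02 to 0.41, adjusted p = 0.223) and -0.03 with it (-0.25 to 0.19, adjusted p = 0.851), intervals that lie below those of Sucla2 (0.71 to 1.12 and 1.45 to 1.86). Idh2 changed by 0.37 without DFO (adjusted p = 0.0974) and fell by 0.83 with DFO in GFP cells (log2 -0.83, adjusted p = 0.00498). A test of the difference between genes was not run.

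**Figure D4:**
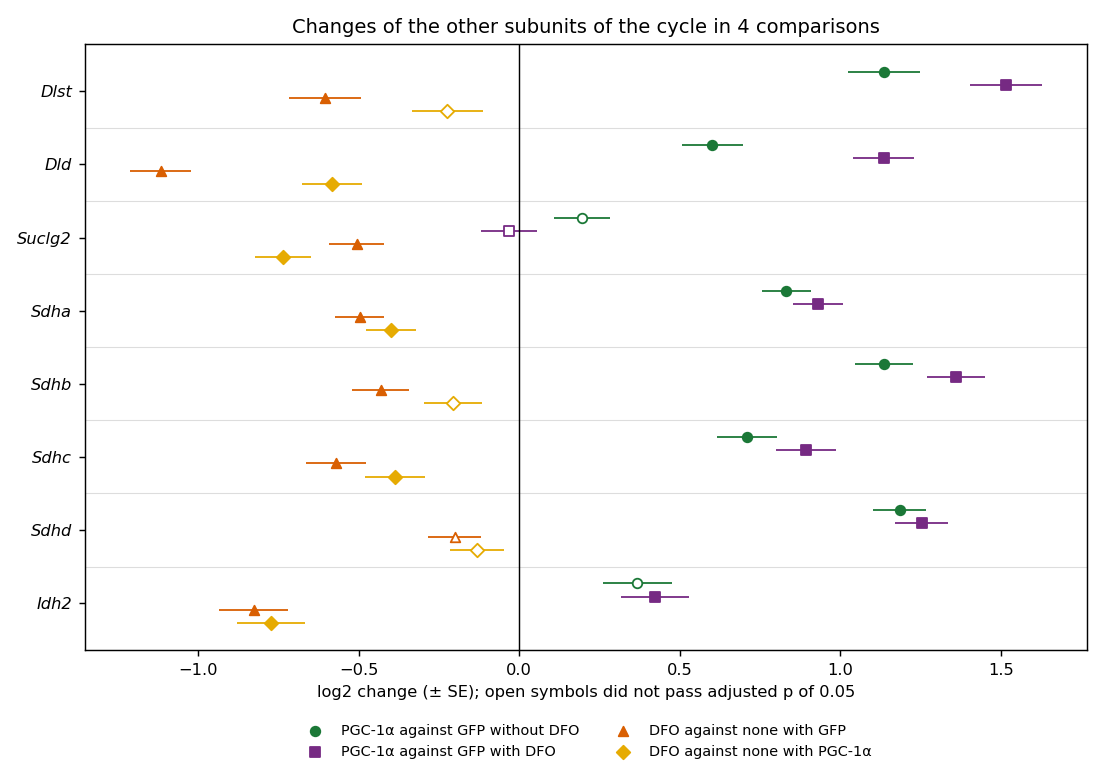
Log2 change of the 8 other subunits of the cycle in 4 comparisons, as points with the SE from limma; open symbols did not pass an adjusted p of 0.05. Suclg2 lies near 0 for PGC-1α, at 0.20 and -0.03, while the 4 Sdh subunits lie between 0.71 and 1.36.

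Calls of several of these subunits rested on single arrays. In the rise with PGC-1α without DFO, the count was 2 without GFP-PGC-1α replicate 1: Dlst and Sdha lost their calls without that array (limma adjusted p 0.0508 and 0.053), and Dld and Sdhc without any one of the GFP, GFP-PGC-1α or GFP+DFO arrays (up to 0.12 and 0.0914). In GFP cells with DFO, the count was 2 without GFP+DFO replicate 1, 3 without its replicate 2, and 4 without either GFP array. Sdhb lost its fall there without any one of the GFP, GFP-PGC-1α or GFP+DFO arrays (0.0504 to 0.136), and Sdha and Sdhc without either GFP+DFO array (up to 0.0728 and 0.0763). Sdhc also lost it without GFP replicate 2. Dlst lost it without GFP replicate 1 or either GFP+DFO array (0.0694 to 0.0942), and Suclg2 without either GFP array or GFP+DFO replicate 1 (0.0532 to 0.0872). In PGC-1α cells with DFO the count was 2 without either GFP-PGC-1α array and 3 without either GFP+DFO array.

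Among genes that bring pyruvate into the cycle 11 of 12 were measured, and 5 rose with PGC-1α without DFO. Pdk4, a kinase that switches off pyruvate dehydrogenase, rose by 2.28 (limma adjusted p = 0.00168), Dlat, a core subunit of pyruvate dehydrogenase, by 1.56 and Mpc1, a subunit of the mitochondrial pyruvate carrier, by 1.44. In GFP cells DFO raised 4 and lowered 5 of the 11, where 11.8% of all genes were called higher. The largest rises were in kinases of pyruvate dehydrogenase, Pdk1 by 2.50 (adjusted p = 0.00282), Pdk3 by 0.97 and Pdk4 by 0.96. Pdk1 read 367.76 and 649.62 in GFP and 2698.47 and 2824.18 in GFP+DFO, so the groups were far apart although the GFP arrays differed.

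Of 6 genes of the cytosolic counterparts and of citrate export, all measured, only Mdh1, cytosolic malate dehydrogenase, rose with PGC-1α without DFO (log2 0.67, limma adjusted p = 0.0206); it lost that call without GFP replicate 1, either GFP-PGC-1α array or either GFP+DFO array (0.0679 to 0.115). DFO in GFP cells raised 2 of the 6, Slc25a1, the mitochondrial citrate carrier, by 1.51 (adjusted p = 0.00103) and Acly, ATP citrate lyase, by 1.21 (adjusted p = 0.00156).

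Of the genes that refill or drain the cycle 10 of 11 were measured, and 6 rose with PGC-1α without DFO. Bdh1, a ketone body dehydrogenase, read 3.13 and 7.05 in GFP and 478.96 and 507.29 in GFP-PGC-1α (log2 6.71 ± 0.45 SE, limma adjusted p = 0.00286), and its size is uncertain because the GFP values are so low. The aspartate aminotransferases Got1 (cytosolic) and Got2 (mitochondrial) rose by 1.68 and 1.51. In GFP cells DFO raised 1 of the 10, the mitochondrial malic enzyme Me2 (log2 2.17, adjusted p = 0.000311). It lowered 6, among them Oxct1, which activates ketone bodies, by 1.51 (log2 -1.51, adjusted p = 0.000386) and Me3, a second mitochondrial malic enzyme, by 1.37 (log2 -1.37, adjusted p = 0.000407).

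Esrra, the oestrogen-related receptor alpha, read 239.62 and 224.71 in GFP and 1003.79 and 1144.29 in GFP-PGC-1α (log2 2.21, limma adjusted p = 0.00168), and 179.65 and 183.72 in GFP+DFO against 1196.59 and 1191.29 in GFP-PGC-1α+DFO (log2 2.72).

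Likeness to the mean pattern of the 9 genes was measured as the root mean square difference in log2, centred per gene, over the 8 arrays. The nearest genes outside the 9 were Uqcrc2 (0.0362), a core subunit of respiratory complex III, Dgat1 (0.0481), which makes triglycerides, Bola3 (0.0639), which helps deliver iron-sulfur clusters, Mrps36 (0.0718) and Mrps5 (0.0756). The median over all genes was 0.850. The members themselves ran from 0.0815 (Sucla2) to 0.479 (Idh3a), and Mdh2 was at 0.407. Uqcrc2 rose by 1.13 with PGC-1α without DFO and fell by 0.73 with DFO in GFP cells (log2 -0.73).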

How the data were processed

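RNA from 8 cultures (4 groups of 2) was hybridised to Affymetrix mouse arrays, as the labels state. The authors deposited linear intensities per probe set. Their summarisation of probes, background correction and scaling were not given in the sources used here. Of 45101 probe sets, 34945 had 1 symbol in the platform annotation, 932 several and 9160 none, and 64 were controls; 968 to 1082 values per array were exactly 1. The number of arrays limits the precision.

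Intensities were log2-transformed without pseudocount or filter, and limma 3.58.1 (R 4.3.3) fitted 4 group means to the 8 arrays, with 4 residual degrees of freedom, 1.3 prior ones, 6 contrasts, Benjamini-Hochberg adjustment over 18193 genes (or 34945 probe sets) and a threshold of 0.05. P-values are two-sided, SE and 95% intervals are limma's. The members and gene lists were chosen with earlier results of these data known.

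The text names all members and their probe sets, all measured other subunits of the cycle, of 3 further pathway lists the 3 largest called changes with PGC-1α without DFO and with DFO in GFP cells, Ppargc1a, Esrra and the 5 nearest genes in pattern. Idh3 proteins were not analysed here. Alternatives covered scaling, choice of probe set, filters, the variance model, the arrays fitted, a replicate block and each array left out. Those for other genes and subunit ratios were chosen after seeing the data.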

Additional observations from a re-analysis of the deposited data

Results flagged for a closer look

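Among the named genes, Oxct1, which activates ketone bodies for entry into the cycle, was flagged because its response to PGC-1α differed between cells with and without DFO by a test of the difference itself. It read 3532.8 and 3595.89 in GFP, 6792.42 and 7008.42 in GFP-PGC-1α, 1253.14 and 1255.04 in GFP+DFO, and 4849.43 and 4562.57 in GFP-PGC-1α+DFO. The interaction was 0.954 on the log2 scale (95% interval 0.67 to 1.24, limma adjusted p = 0.04998). It lost that call without any one of the 8 arrays (adjusted p 0.0656 to 0.253). Groups of 2 arrays were too small to check single arrays against their group.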

How the results depend on the processing

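Of 1017 values of the 9 members under an alternative, 881 kept direction and side of the threshold, 94 lost the call, 23 gained it and 19 turned sign or came to 0. The sign turned for Sucla2 with PGC-1α without DFO over the mean of probe sets (-0.202) and for Idh3b with DFO in GFP cells without probe sets of shared sequence (0.299). With DFO in PGC-1α cells it turned under spike-in scaling for Cs (0.243), Idh3a (0.092), Idh3b (0.27), Sucla2 (0.245), Suclg1 (0.066) and Mdh2 (0.311), over the mean for Sucla2 (0.479), without probe sets of shared sequence for Idh3b (0.126), and Mdh2 came to 0 without GFP-PGC-1α+DFO replicate 2 (-0.258 to 0 over single arrays left out). The interaction turned over the mean for Idh3a (-0.149), Idh3b (-0.147) and Ogdh (-0.105), without probe sets of shared sequence for Idh3b (-0.174), without GFP-PGC-1α+DFO replicate 1 for Suclg1 (-0.014; -0.014 to 0.14 over single arrays left out) and Mdh2 (-0.075; -0.075 to 0.183), and for Mdh2 without GFP replicate 2 (-0.001) or GFP+DFO replicate 2 (-0.015). Members called with PGC-1α without DFO numbered 0 in a fit of the groups compared and 5 to 9 with 1 array left out. With PGC-1α with DFO they numbered 8 to 9 with 1 array left out, with DFO in GFP cells 6 to 8, and with both treatments 6 to 8. With DFO in GFP cells they numbered 5 over the mean of probe sets. With DFO in PGC-1α cells they numbered 0 under spike-in scaling, 3 over the mean of probe sets, 3 with every probe set tested, 0 with the groups compared and 0 to 4 with 1 array left out. For the interaction they numbered 1 (quantile), 5 (genes above the median), 1 (floor), 6 (trend and robust) and 0 with any 1 array left out.

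Other alternatives were chosen after seeing the data. Of the 8 other subunits, with PGC-1α without DFO 3 were called over the mean of probe sets, 0 with the groups compared and 2 to 6 with 1 array left out; with DFO present 3 over the mean. With DFO in GFP cells 2 were called under spike-in scaling, 4 over the mean, 4 with the groups compared and 2 to 7 with 1 array left out. With DFO in PGC-1α cells these counts were 0, 2, 2 and 2 to 5. For both treatments 3 were called over the mean and 3 with the groups compared, and for the interaction 1 among genes above the median and 1 with trend and robust. Signs turned over the mean of probe sets for Dld with PGC-1α (-0.14) and with DFO in PGC-1α cells (0.001), Sdha with DFO in GFP cells (0.204), Idh2 with both treatments (0.156) and Ppargc1a with DFO in GFP cells (-0.837), in PGC-1α cells (-0.961) and with both treatments (-0.106). They turned under spike-in scaling with DFO in PGC-1α cells for Sdha (0.041), Sdhc (0.052), Dlat (0.05), Uqcrc2 (0.094), Bola3 (0.012) and Mrps36 (0.002), with both treatments for Suclg2 (0.077) and Idh2 (0.212), and for Acly with PGC-1α and DFO (0.156). The Ppargc1a falls over the mean with DFO in GFP cells and in PGC-1α cells passed (limma adjusted p = 0.0276 and 0.0168). Dgat1 with DFO in GFP cells turned to 0.201 without probe sets of shared sequence. A further 59 values of these genes turned sign with no call by either setting. The ratio of Idh3a to Idh3g with DFO in GFP cells, -0.056, was 0.071 over the mean and -0.19 to 0.077 with 1 array left out. The causes were not tested.

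With the replicate number as a block, the members called in the 6 comparisons were 8, 9, 8, 4, 0 and 7, in the order of PGC-1α without and with DFO, DFO in GFP and in PGC-1α cells, the interaction and both treatments. Over all genes limma called 1060, 2685, 3840, 4037, 3 and 5266 with that block, in the same order. Deviations of same-numbered arrays correlated between -0.11 and 0.221. The labels give only replicate numbers, so whether these pair the samples is not known. Under spike-in scaling the share of calls that were higher was 86.2% instead of 51% with PGC-1α without DFO and 94% instead of 36.6% with DFO; all-gene medians moved to 0.093 and 0.568, and 7 and 9 members were called.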
